A study of Mus musculus with 15 samples.

Results

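Semaphorins, plexins and neuropilins form a family of guidance ligands and their receptors, and 31 of its genes were followed here, out of 29072 gene symbols in the table. They were chosen by name: 20 semaphorin genes of classes 3 to 7, 9 plexin genes and 2 neuropilin genes, spread over 283 transcript lines. Each gene was represented by its line with the highest mean over the 15 libraries, so that mean was used in the choice. Sema7a was written into the choice because its high level under FGF8b and FGF9 was already known, and its values are given as a description with no test. Of the 31 genes, 27 reached the level needed for testing, 0.5 RPKM (a read rate scaled to transcript length and to the reads of the library) in at least 3 libraries. Sema3g, Sema5b, Sema6a and Plxnb3 did not. The 26 tested genes other than Sema7a are not the whole family: Sema4a reached 0.5 RPKM in the FGF1 libraries alone, Sema6b in those with BAY-876 alone, Plxna4 in these 2 groups and Sema3d in control and FGF1. Sema4f reached it in 4 libraries, all of FGF1, FGF8b or FGF9. These genes entered the test only through libraries where they were high. Their calls in comparisons with those groups are thus descriptions and not support.

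The cells were brown preadipocytes, the precursors of brown fat cells, cultured from the interscapular fat of 129SvEv mice and made immortal with the SV40 large T antigen. RNA was sequenced from 15 libraries in 5 groups of 3: control cells with no agent, and cells given 5.56 nM FGF1, FGF8b or FGF9, or FGF8b with 2 µM BAY-876, which blocks the glucose carrier GLUT1, each for 48 h. The series text gives 1 µg/ml heparin to every FGF treatment, while among the labels only those of FGF9 mention it. No label says whether control cells had heparin, and heparin alone and BAY-876 alone were not analysed here. Large T antigen was common to all groups. The labels do not say whether replicates came from separate cultures, and each p-value therefore reflects the spread of these libraries, which may be technical.

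Semaphorins are ligands that share the sema domain. Class 3 members are secreted, classes 4 to 6 span the membrane, and Sema7a is held at the cell surface by a glycosylphosphatidylinositol (GPI) anchor. Plexins are the signalling receptors, and their intracellular part acts on small GTPases that steer the cytoskeleton and adhesion. Most class 3 semaphorins need a neuropilin, Nrp1 or Nrp2, which binds the ligand and pairs with a class A plexin. Neuropilins are also coreceptors of vascular endothelial growth factor. The family is best known for guiding axons and vessels.

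The reads behind a library's values, recovered from the table, numbered from 27.01 M to 42.6 M (M, mega), and libraries correlated across genes at 0.9913 to 0.9967 within groups and 0.8786 to 0.9962 between groups, where genes are not independent replicates. The labelled cell type was checked on 10 progenitor markers. Pdgfra, Pdgfrb, Ly6a, Cd34, Dlk1, Col1a1, Col3a1 and Eng averaged lower in FGF8b, FGF9 and FGF8b plus BAY-876 than in control. Thy1 and Cd44 averaged higher in FGF8b and FGF9, and FGF1 moved the markers in both directions. Pdgfra averaged 276 RPKM in control cells, 298 after FGF1, 39.9 after FGF8b, 30.4 after FGF9 and 21.5 when BAY-876 was added to FGF8b. Ly6a was at 1015 RPKM in control, 245.3 after FGF1, 52.65 after FGF8b, 44.69 after FGF9 and 18.57 with BAY-876. Col1a1 was at 432.7 in control, 455.9 after FGF1, 85.24 after FGF8b, 91.23 after FGF9 and 9.659 with BAY-876. Thy1 was at 37.8 in control and 62.8 after FGF8b, with 23.67 when BAY-876 was added. Cd44 was at 27.4 and 49.7, with 103.8 when BAY-876 was added. Of 5 mature fat markers, Adipoq, Plin1, Cidec and Lep lay between 0 and 0.0256 RPKM on average in every group, and Fabp4 lay between 5.51 and 8.05. In bulk RNA, fewer cells of a type and less RNA per cell cannot be told apart.

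In control cells the semaphorin transcripts were mostly those of class 3, and in FGF8b and FGF9 cells Sema7a took the first place. The 7 class 3 genes summed to 60.9 ± 1.65 RPKM (SD, n = 3) in control, which was 74.0 ± 2.55% of all semaphorin RPKM. Their sum was 52.1 ± 2.07 after FGF1, 22.1 ± 0.632 after FGF8b, 22.9 ± 0.454 after FGF9 and 23.7 ± 0.768 with BAY-876. Sema7a held 1.41 ± 0.179% of semaphorin RPKM in control and 5.12 ± 0.182% in FGF1. It held 48.2 ± 2.90% in FGF8b, 56.3 ± 1.75% after FGF9 and 31.2 ± 1.47% with BAY-876. These sums are descriptions and were not tested.

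**Figure D1:**
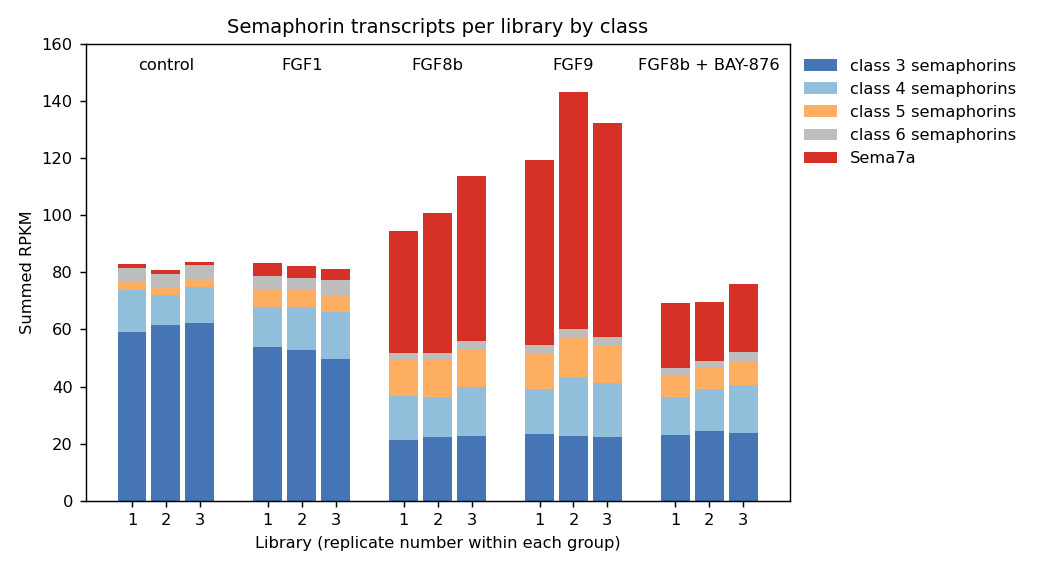
Summed RPKM (vertical axis) of the semaphorin genes in each of the 15 libraries (horizontal axis, replicate numbers within each group), stacked by class. Class 3 transcripts are the tallest part in every control and FGF1 library, and Sema7a is the tallest part in every FGF8b and FGF9 library.

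Among semaphorins in control, Sema3c had the highest level, 33.7 RPKM, followed by Sema3a at 13.1, Sema4c at 7.07 and Sema3d at 5.63. In FGF8b the order was Sema7a at 49.8, Sema5a at 13.03, Sema3a at 10.05 and Sema3c at 8.33. Among receptors, Plxnb2 was the highest plexin in all 5 groups, from 24.1 to 46.3 RPKM, with Plxna1 second at 10.5 to 15.2. Nrp1 stood above Nrp2 in control, FGF1, FGF8b and FGF9, and below it with BAY-876. Levels between genes depend on the transcript line that represents each: on its RefSeq line, Sema3c was at 25.5 and Sema3a at 8.11 RPKM in control.

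Sema7a encodes the GPI-anchored semaphorin, whose receptors include plexin-C1 and integrin beta-1, and lies on chromosome 9 (57940112 to 57962865, plus strand, GENCODE vM21 on GRCm38). Its level was 1.25, 1.22 and 1.00 RPKM in the control libraries and 4.32, 4.33 and 3.999 in FGF1. It was 42.6, 49.1 and 57.8 RPKM in FGF8b, and 65.0, 82.8 and 74.9 in FGF9. With BAY-876 added to FGF8b it was 22.5, 20.6 and 23.9 RPKM. No library of one group overlapped another group, and the order from low to high was control, FGF1, FGF8b plus BAY-876, FGF8b and FGF9. The log2 difference from control, on the scale of RPKM plus 0.5 used for all log2 values here, was 1.51 ± 0.11 (SE) for FGF1, 4.92 ± 0.11 for FGF8b, 5.49 ± 0.11 for FGF9 and 3.79 ± 0.11 with BAY-876. Between 392 reads over the control libraries and 28920 over the FGF9 libraries stood behind these levels.

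Sema5a, a transmembrane semaphorin with thrombospondin repeats, was the other strongly raised ligand (chromosome 15, 32244810 to 32696341). It stood at 2.71, 2.35 and 2.46 RPKM in control, 6.18, 6.35 and 6.13 in FGF1, and 7.59, 7.24 and 8.58 with BAY-876. In FGF8b it was 12.5, 13.3 and 13.3 RPKM, and in FGF9 12.8, 13.7 and 12.9. Every FGF library lay above every control library, and FGF8b and FGF9 overlapped each other. Sema5a rose by 1.16 ± 0.07 in FGF1 (adjusted p = 8.22e-09, limma with Benjamini-Hochberg adjustment over 13869 genes, as all adjusted p here), by 2.17 ± 0.07 in FGF8b (6.70e-13) and by 2.18 ± 0.07 in FGF9 (5.46e-13). It fell by 0.71 ± 0.07 when BAY-876 was added to FGF8b (limma adjusted p = 7.86e-07) and stayed 1.46 ± 0.07 above control (limma adjusted p = 4.28e-11). Plxnb3 encodes a known receptor of Sema5a, which need not be the only one. For Plxnb3 the table held 16 reads over the 3 control libraries, 8 over FGF1, 1 over FGF8b, 5 over FGF9 and 0 over those with BAY-876. A count of 0 allows up to 0.00838 RPKM (3 reads, counting error only).

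Promoter sequences are shown for both raised ligands and for 2 genes whose window held a searched motif. RefSeq promoter windows (GRCm38.p6, 250 bases before to 50 after the start site) were held for 26 of the 31 genes in 37 windows. Motifs were searched on both strands: ETS (CCGGAAG), AP-1 (TGANTCA), CRE (TGACGTCA), the E-box (CACGTG) and an ATF4-CEBP element (TGATGNAAN). Capitals mark a match, and all 4 genes lie on the plus strand.
Sema7a, chr9:57939862-57940161: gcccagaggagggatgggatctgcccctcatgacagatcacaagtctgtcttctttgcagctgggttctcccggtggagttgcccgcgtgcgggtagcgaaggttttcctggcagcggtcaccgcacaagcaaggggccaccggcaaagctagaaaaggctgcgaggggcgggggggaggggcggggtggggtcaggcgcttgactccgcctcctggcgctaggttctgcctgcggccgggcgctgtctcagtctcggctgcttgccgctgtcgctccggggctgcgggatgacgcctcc
Sema5a, chr15:32244563-32244862: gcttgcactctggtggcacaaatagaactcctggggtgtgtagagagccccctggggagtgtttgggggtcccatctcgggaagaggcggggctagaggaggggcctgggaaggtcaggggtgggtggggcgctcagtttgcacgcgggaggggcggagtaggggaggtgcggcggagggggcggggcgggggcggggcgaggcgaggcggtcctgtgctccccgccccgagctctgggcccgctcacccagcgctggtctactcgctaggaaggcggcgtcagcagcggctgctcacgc
Plxnb1, chr9:109095186-109095485: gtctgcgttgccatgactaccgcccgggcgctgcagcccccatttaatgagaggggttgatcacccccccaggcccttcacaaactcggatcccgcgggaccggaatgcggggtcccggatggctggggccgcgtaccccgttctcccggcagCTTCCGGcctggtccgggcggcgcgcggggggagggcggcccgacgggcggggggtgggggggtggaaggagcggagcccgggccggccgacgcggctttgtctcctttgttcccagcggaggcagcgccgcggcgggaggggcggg
Sema3e, chr5:14025026-14025325: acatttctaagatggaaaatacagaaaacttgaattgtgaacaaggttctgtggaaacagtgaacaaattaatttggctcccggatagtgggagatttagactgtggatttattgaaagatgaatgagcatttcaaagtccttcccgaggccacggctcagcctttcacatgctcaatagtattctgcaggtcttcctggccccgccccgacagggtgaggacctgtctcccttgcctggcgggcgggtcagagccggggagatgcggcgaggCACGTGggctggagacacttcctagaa
The ETS letters were in 1 of the 37 windows, that of Plxnb1 at position -97 from the start, beside 8.86% of all 32851 windows. AP-1 was in 3 windows (of Sema4c, Sema4d and Sema6b), beside 7.81% of all, and the E-box in 3 (of Sema3e, Sema4b and Sema6d), beside 7.15%. CRE and the ATF4-CEBP element were in 0, beside 1.79% and 3.95%. The windows of Sema7a and Sema5a held none of the 5 motifs. A match is a run of letters and not a measured binding site, and no match says only that the letters are not in these windows.

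Class 4 semaphorins are membrane ligands that mostly bind class B plexins. Sema4d, the ligand of plexin-B1 and known from immune cells and bone, was at 0.616, 0.589 and 0.517 RPKM in control, 0.755, 1.00 and 0.992 in FGF1, and 1.82, 1.47 and 1.36 in FGF8b. It was at 1.88, 1.55 and 2.00 in FGF9 and at 1.25, 1.41 and 1.81 with BAY-876. It rose by 0.93 ± 0.12 in FGF8b (limma adjusted p = 7.51e-06), by 1.10 ± 0.12 in FGF9 (1.12e-06) and by 0.88 ± 0.12 with BAY-876 (1.01e-05), all against control. In FGF1 its rise of 0.40 ± 0.12 (limma adjusted p = 0.0214) was lost without FGF1 replicate 2 (0.0798), FGF1 replicate 3 (0.0763) or control replicate 3 (0.0683). Adding BAY-876 to FGF8b moved it by -0.05 ± 0.12, which did not pass (limma adjusted p = 0.752).

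Sema4g, at 1.18 ± 0.0678 RPKM in control and 1.63 ± 0.539 in FGF8b, fell to 0.675 ± 0.141 with BAY-876, a change of -0.83 ± 0.14 from FGF8b (limma adjusted p = 1.44e-04). Sema4b rose with BAY-876, from 3.29 ± 0.436 in FGF8b to 4.92 ± 0.719 RPKM, by 0.51 ± 0.12 (limma adjusted p = 0.0025). Sema4c was at 7.07 ± 1.91 RPKM in control and 10.3 ± 2.02 in FGF9, a rise of 0.53 ± 0.17 (limma adjusted p = 0.0104) that was lost without control replicate 2 (0.0698) or FGF9 replicate 2 (0.0555). Sema4a and Sema4f were low, between 0.153 and 0.589 RPKM on average. Sema4a rose by 0.45 ± 0.11 in FGF1 (0.99 with voom, limma adjusted p = 0.00434) and fell by 0.39 ± 0.11 with BAY-876 over FGF8b (-1.33 with voom, 0.00627). Sema4f rose in FGF1, FGF8b and FGF9, by 0.35 to 0.43, and fell by 0.48 ± 0.09 with BAY-876 over FGF8b (-1.14 with voom, limma adjusted p = 3.40e-04). Sema4a entered the test only through FGF1 libraries, and Sema4f only through libraries of FGF1, FGF8b and FGF9. The calls of both genes in these groups are therefore descriptions.

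Class 3 semaphorins, the secreted ligands, were lower under FGF8b: 6 of the 6 tested genes fell, where 26.6% of all tested genes were called lower, and their median log2 change was -1.43 beside 0.08 for all genes. Of these, Sema3f fell by 0.37 ± 0.15 (limma adjusted p = 0.0381) and lost its call without FGF8b replicate 1 (0.11) or 2 (0.0852), or control replicate 1 (0.121) or 2 (0.0767), and with a pseudocount of 0.1 (0.06) or no filter on levels (0.0777). Under FGF9, 5 of 6 fell, beside 27% of all genes, with a median of -1.41. Among them, the call of Sema3a did not hold in every setting, as given below. Under FGF1, 2 of 6 fell, beside 15.1% of all genes, with a median of -0.24 beside 0.02, and under trimmed-mean scaling of the libraries 4 of 6 fell. Each of these counts holds Sema3d, which entered the test only through control and FGF1 libraries, so its part in them is a description. The FGF comparisons share the control libraries.

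Sema3c, a secreted ligand of both neuropilins and the most abundant semaphorin of control cells, was at 33.5, 34.8 and 32.9 RPKM in control and 29.7, 30.2 and 28.4 in FGF1. It was at 7.77, 9.02 and 8.20 in FGF8b, 7.68, 6.19 and 6.80 in FGF9, and 14.6, 15.5 and 14.9 with BAY-876. FGF8b plus BAY-876 thus lay between control and FGF8b with no overlap. Sema3c fell by 1.96 ± 0.07 in FGF8b (limma adjusted p = 2.57e-12) and by 2.21 ± 0.07 in FGF9 (4.96e-13), and rose by 0.81 ± 0.07 when BAY-876 was added to FGF8b (1.76e-07). In FGF1 its difference of -0.19 ± 0.07 missed the threshold (limma adjusted p = 0.053).

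Sema3d, a secreted ligand that in zebrafish guides axons, had the largest fall of the 26 genes in each comparison with control. It was at 5.02, 5.32 and 6.57 RPKM in control and 1.09, 1.03 and 1.23 in FGF1. It was at 0.140, 0.343 and 0.299 in FGF8b, 0.320, 0.249 and 0.322 in FGF9, and 0.0737, 0.0828 and 0.0511 with BAY-876. The reads behind these values numbered 2166 for control, 363 for FGF1, 92 for FGF8b, 129 for FGF9 and 27 with BAY-876. Sema3d fell by 1.92 ± 0.12 in FGF1 (limma adjusted p = 5.84e-09), by 3.01 ± 0.12 in FGF8b (3.77e-12) and by 2.94 ± 0.12 in FGF9 (4.28e-12). Only control and FGF1 libraries brought Sema3d into the test, so its falls from control are descriptions. From FGF8b to FGF8b plus BAY-876 it fell further, by 0.41 ± 0.12 (limma adjusted p = 0.00716). The 0.5 RPKM added before the logarithm shrinks changes of such low levels: with voom, limma's method for counts, on the recovered reads, the changes of Sema3d were -2.33 in FGF1, -4.49 in FGF8b, -4.24 in FGF9 and -1.83 from FGF8b to FGF8b plus BAY-876.

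Sema3e, which binds plexin-D1 without a neuropilin, was at 2.88, 2.96 and 4.05 RPKM in control and 1.94, 1.82 and 1.92 in FGF1. It was at 0.868, 0.718 and 0.795 in FGF8b, 0.844, 0.702 and 0.773 in FGF9, and 0.627, 0.795 and 1.02 with BAY-876. The last 3 groups overlapped one another and lay below FGF1, which lay below control. Its falls from control were 0.65 ± 0.12 in FGF1 (limma adjusted p = 6.95e-04), 1.54 ± 0.12 in FGF8b (2.49e-08) and 1.56 ± 0.12 in FGF9 (1.91e-08), and BAY-876 added to FGF8b moved it by 0.01 ± 0.12 (0.931).

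Sema3b, a secreted ligand studied in human tumours as a growth suppressor, was at 2.44 ± 0.275 RPKM in control and 0.682 ± 0.113 in FGF8b, a fall of 1.31 ± 0.12 (limma adjusted p = 1.30e-07). With BAY-876 it was at 1.66, 1.75 and 1.89 RPKM, above every FGF8b library (0.781, 0.559 and 0.705), a rise of 0.94 ± 0.12 (limma adjusted p = 8.34e-06). Sema3a, which repels sensory and sympathetic axons, was at 11.9, 13.6 and 13.8 RPKM in control, 9.93, 9.88 and 10.3 in FGF8b, and 5.45, 5.63 and 5.07 with BAY-876. It fell by 0.36 ± 0.08 in FGF8b (limma adjusted p = 6.46e-04) and by a further 0.84 ± 0.08 with BAY-876 (2.04e-07). Its fall under FGF9, by 0.19 ± 0.08 (limma adjusted p = 0.04), was lost when only the groups compared were fitted (0.0691). That call was also lost without control replicate 2 (0.125) or 3 (0.131), FGF9 replicate 2 (0.0883) or 3 (0.0947), or FGF1 replicate 2 (0.0503). Sema3f, a ligand of Nrp2, was at 1.74, 1.83 and 2.07 RPKM in FGF8b and 0.447, 0.538 and 0.864 with BAY-876, a fall of 1.11 ± 0.15 (limma adjusted p = 1.19e-05). So with BAY-876 added, Sema3b and Sema3c were higher than with FGF8b alone, Sema3a, Sema3d and Sema3f were lower, and Sema3e did not pass.

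**Figure D2:**
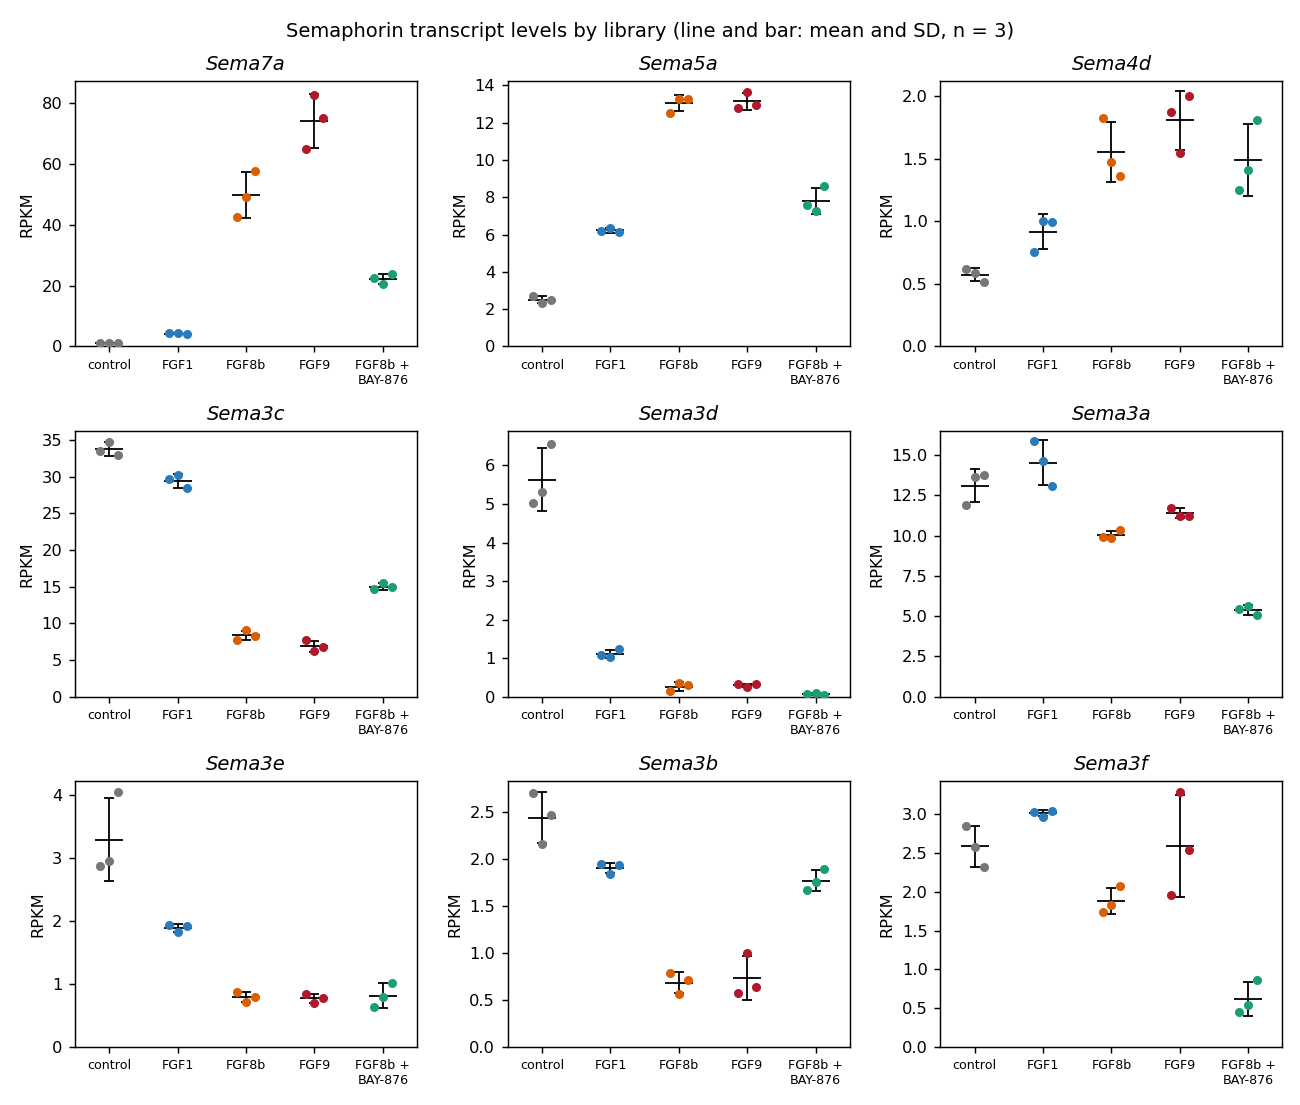
RPKM (vertical axis, from 0) of 9 semaphorins in the 3 libraries of each group (points), with the mean and SD (line and bars, n = 3). Sema7a and Sema5a are highest in FGF8b and FGF9, and Sema3c, Sema3d and Sema3e are highest in control.

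Class 6 semaphorins are transmembrane ligands of class A plexins. Sema6c was at 4.08, 4.27 and 4.34 RPKM in control, 1.95, 1.29 and 1.39 in FGF8b, 1.35, 1.57 and 1.69 in FGF9, and 1.12, 0.835 and 1.69 with BAY-876. It fell by 1.23 ± 0.17 in FGF8b (limma adjusted p = 1.10e-05) and by 1.22 ± 0.17 in FGF9 (1.09e-05), and its difference of -0.45 ± 0.17 in FGF1 narrowly missed the threshold (0.0509). Sema6d rose by 0.59 ± 0.14 in FGF1 (limma adjusted p = 0.00422) and by 0.63 ± 0.14 in FGF9 (0.00103), from 0.516 ± 0.138 RPKM in control to 1.02 ± 0.118 and 1.07 ± 0.0906. Sema6b rose with BAY-876, from 0.288 ± 0.0657 RPKM in FGF8b to 0.595 ± 0.0476, by 0.48 ± 0.11 (1.04 with voom, limma adjusted p = 0.00119). Since only the libraries with BAY-876 brought Sema6b into the test, this call is a description. Sema6a had 50 reads over the control libraries and 7 over the FGF8b libraries and was not tested.

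The neuropilins, coreceptors of the class 3 ligands, both fell under FGF8b and FGF9 and parted with BAY-876. Nrp1 (chromosome 8, 128358604 to 128503363) was at 43.7, 39.0 and 41.3 RPKM in control and 53.6, 56.8 and 51.2 in FGF1. It was at 13.7, 14.2 and 15.5 in FGF8b, 13.8, 14.1 and 13.9 in FGF9, and 7.70, 8.22 and 6.84 with BAY-876. FGF1 libraries were thus above control and all others below it. Nrp1 rose by 0.38 ± 0.07 in FGF1 (limma adjusted p = 5.72e-04), fell by 1.48 ± 0.07 in FGF8b (4.50e-11) and 1.53 ± 0.07 in FGF9 (2.64e-11), and fell by a further 0.89 ± 0.07 with BAY-876 (3.99e-08).

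Nrp2 (chromosome 1, 62703285 to 62818695) was at 3.89, 4.10 and 4.43 RPKM in control and 2.47, 2.51 and 2.09 in FGF1. It was at 1.19, 1.03 and 1.08 in FGF8b, 1.11, 0.968 and 0.996 in FGF9, and 10.9, 10.8 and 11.1 with BAY-876. The libraries with BAY-876 were the highest of all 15, above control, and those of FGF8b and FGF9 the lowest. Nrp2 fell by 0.70 ± 0.08 in FGF1 (limma adjusted p = 8.96e-06), by 1.53 ± 0.08 in FGF8b (2.60e-10) and by 1.60 ± 0.08 in FGF9 (1.36e-10). With BAY-876 it rose by 2.83 ± 0.08 over FGF8b (limma adjusted p = 7.65e-13), the largest rise of the 26 genes in that comparison, and by 1.30 ± 0.08 over control (1.16e-09).

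Class A plexins transmit class 3 and class 6 signals. Plxna2 was at 1.62, 1.54 and 1.44 RPKM in control and 1.54, 1.70 and 1.59 in FGF1. It was at 0.546, 0.525 and 0.557 in FGF8b, 0.585, 0.528 and 0.537 in FGF9, and 2.63, 2.33 and 2.58 with BAY-876. As with Nrp2, its levels were lowest in FGF8b and FGF9 and highest with BAY-876. It fell by 0.96 ± 0.08 in FGF8b (limma adjusted p = 3.02e-08) and rose by 1.53 ± 0.08 with BAY-876 over FGF8b (3.09e-10). Plxna4 was at 0.162, 0.122 and 0.190 RPKM in control and 2.77, 2.75 and 2.76 in FGF1. It was at 0.172, 0.292 and 0.158 in FGF8b, 0.305, 0.329 and 0.295 in FGF9, and 1.60, 1.18 and 1.68 with BAY-876. Plxna4 rose by 2.31 ± 0.11 in FGF1 (4.10 with voom, limma adjusted p = 3.41e-10), the largest rise of the 26 genes in that comparison, and by 1.49 ± 0.11 with BAY-876 over FGF8b (2.85 with voom, limma adjusted p = 1.35e-08). FGF8b and FGF9 together stood below FGF1 by 2.11 ± 0.09 for this gene (limma adjusted p = 1.48e-11, in 6 of 6 libraries). Only the libraries of FGF1 and those with BAY-876 brought Plxna4 into the test, so its calls in these comparisons are descriptions.

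Plxna1, the most abundant class A plexin, rose with BAY-876 over FGF8b by 0.51 ± 0.09 (limma adjusted p = 1.42e-04), from 10.5 ± 0.836 to 15.2 ± 1.37 RPKM. Plxna3 was at 8.35 ± 0.996 RPKM in control and 5.24 ± 0.571 with BAY-876, a fall of 0.62 ± 0.10 (limma adjusted p = 5.41e-05). Of the class B plexins, receptors of class 4 semaphorins, Plxnb2 was at 51.0, 44.6 and 40.5 RPKM in control, 29.2, 27.1 and 30.8 in FGF8b, 25.8, 34.5 and 29.6 in FGF9, and 22.2, 24.3 and 25.7 with BAY-876. It fell by 0.63 ± 0.10 in FGF8b (limma adjusted p = 3.50e-05) and by 0.59 ± 0.10 in FGF9 (6.08e-05), while FGF1 moved it by 0.03 ± 0.10 (0.827). Plxnb1 rose by 0.81 ± 0.11 in FGF1 (limma adjusted p = 4.42e-05), from 0.987 ± 0.064 to 2.10 ± 0.117 RPKM, and by 0.77 ± 0.11 with BAY-876 against control (1.80e-05). It also rose by 0.512 ± 0.114 in FGF9 (limma adjusted p = 0.000973) and by 0.395 ± 0.114 in FGF8b (0.00669). The call in FGF8b was lost with the sum over transcripts (limma adjusted p = 0.0894).

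Plxnc1, the plexin that binds Sema7a, passed in neither FGF8b nor FGF9 against control. It was at 1.37, 1.37 and 1.52 RPKM in control, 1.25, 1.19 and 1.12 in FGF1, 1.62, 1.34 and 1.05 in FGF8b, and 1.37, 1.14 and 1.25 in FGF9. With BAY-876 it was at 0.736, 0.563 and 0.722 RPKM, below every other library. It differed from control by -0.07 ± 0.11 in FGF8b (limma adjusted p = 0.575) and -0.13 ± 0.11 in FGF9 (0.298), and fell by 0.64 ± 0.11 with BAY-876 over FGF8b (1.39e-04). Plxnd1, the receptor of Sema3e, averaged from 6.92 RPKM in control to 9.91 with BAY-876, a rise of 0.49 ± 0.11 (limma adjusted p = 0.00099). Its rise of 0.33 in FGF9 (limma adjusted p = 0.0156) was lost without control replicate 2 (0.0801) and under trimmed-mean scaling (0.0854). That of 0.33 with BAY-876 over FGF8b (limma adjusted p = 0.0196) was lost without BAY-876 replicate 2 (0.0667) or 3 (0.0869) or FGF8b replicate 2 (0.121).

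**Figure D3:**
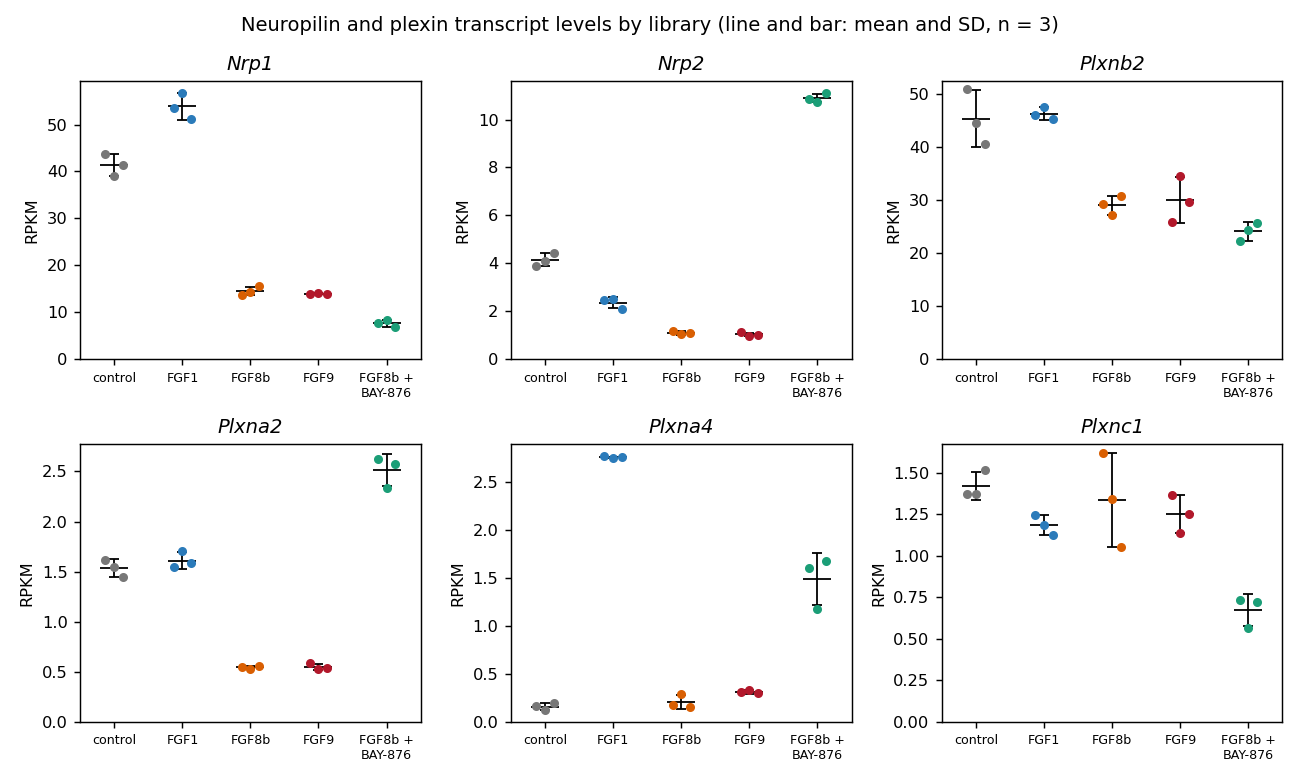
RPKM (vertical axis, from 0) of both neuropilins and 4 plexins in the 3 libraries of each group (points), with the mean and SD (line and bars, n = 3). Nrp2 and Plxna2 are highest with BAY-876, Plxna4 is highest in FGF1, and Nrp1 is lowest with BAY-876.

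Counted over the 26 tested genes, FGF1 against control called 9 higher and 3 lower (46.2%), beside 34.4% of all 13869 tested genes, of which 19.3% were higher and 15.1% lower. Under trimmed-mean scaling the members' split was 9 and 6, and all-gene calls turned from 2677 higher and 2095 lower to 2113 and 2547. FGF8b called 4 higher and 13 lower (65.4%), beside 64.4% of all genes (37.8% higher, 26.6% lower). FGF9 called 9 higher and 10 lower (73.1%), beside 65.7% (38.7% higher, 27% lower). The shares called for FGF8b and FGF9 were near those of all genes and are not a result about the family. Trimmed-mean scaling moved the median change of all genes from 0.08 to -0.02 for FGF8b and from 0.09 to -0.01 for FGF9. With it, all-gene calls turned from 5238 higher and 3693 lower to 4068 and 4614 for FGF8b, and from 5369 and 3739 to 4211 and 4671 for FGF9.

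BAY-876 added to FGF8b called 10 higher and 10 lower (76.9%), beside 57.3% of all genes (22.5% higher, 34.8% lower). Of the 8 tested plexins, 5 were higher and 2 lower there. Among the higher ones, Plxnb1 (0.372, limma adjusted p = 0.0112) lost its call without BAY-876 replicate 3 (0.0597). The call of Plxnd1 did not hold in every setting, as given above, and that of Plxna4 is a description. The call of Plxnb2 (-0.27, limma adjusted p = 0.0296) was lost under trimmed-mean scaling (0.0908), median centring (0.0621) and no filter on levels (0.0569). It was also lost without FGF8b replicate 1 (0.0677) or 3 (0.104) or BAY-876 replicate 1 (0.111) or 2 (0.0563). FGF8b plus BAY-876 against control called 11 higher and 13 lower (92.3%), beside 72.7% (36.8% higher, 35.9% lower), and all 6 tested class 3 genes were lower, Sema3b no longer so without control replicate 1 (limma adjusted p = 0.0563). FGF8b and FGF9 together against FGF1 called 2 higher, Sema5a and Sema4d, and 16 lower (69.2%), beside 65.6% (36.8% higher, 28.8% lower). The 6 tested class 3 genes and both neuropilins were among the 16. The call of Sema3d in either class 3 count is a description, since only control and FGF1 libraries brought it into the test. Under trimmed-mean scaling, all-gene calls turned from 5102 higher and 4001 lower to 4391 and 4645 in that comparison, and from 5106 and 4977 to 4777 and 5287 for FGF8b plus BAY-876 against control.

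**Figure D4:**
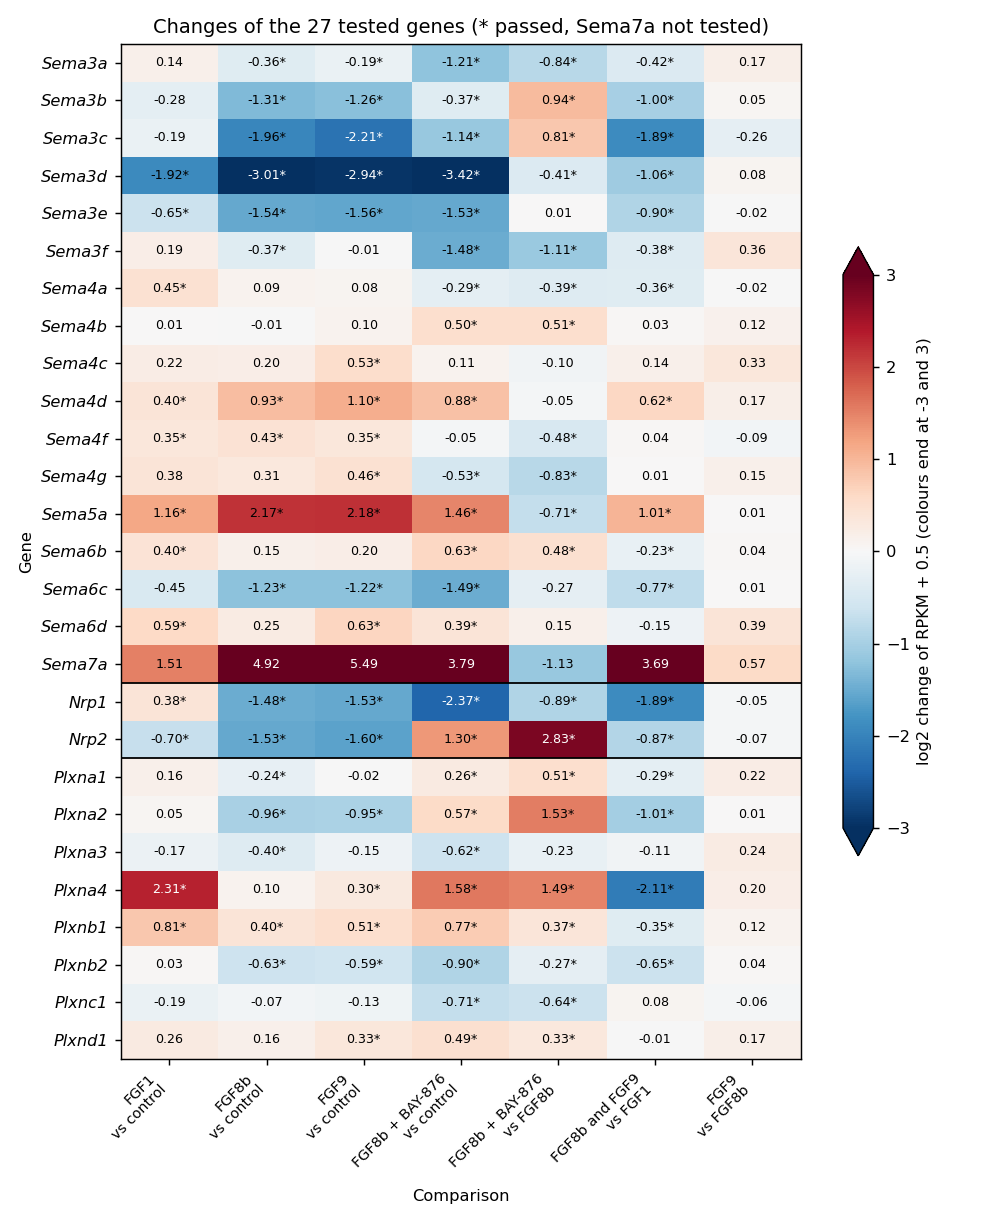
Log2 change of RPKM plus 0.5 (colour and number) for the 27 tested genes (rows) in the 7 comparisons (columns), where an asterisk marks adjusted p under 0.05 in limma and Sema7a was not tested. Class 3 semaphorins and neuropilins are blue under FGF8b, and no gene in the last column carries an asterisk.

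Between FGF9 and FGF8b, 0 of the 26 genes passed in limma, beside 0.296% of all genes (0.202% higher, 0.0937% lower). At an unadjusted p under 0.05 there were 6 of 26 in limma, 8 with voom, 3 without FGF8b replicate 1 and 2 without FGF8b replicate 2 or FGF9 replicate 2 or 3, and voom also called 0. The share of all genes under that unadjusted threshold is not given here, so these counts are not a result about the family. The differences of FGF9 from FGF8b ran from -0.26 for Sema3c (95% interval -0.41 to -0.10) to 0.39 for Sema6d (0.08 to 0.69). The interval was -0.14 to 0.17 for Sema5a, -0.20 to 0.10 for Nrp1 and -0.25 to 0.11 for Nrp2. These intervals are not adjusted for the number of genes, and a missed threshold does not show that the ligands act alike.

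Other genes of the pathway moved in both directions. Their counts in FGF8b are read beside the 37.8% of all genes called higher and 26.6% called lower, with a median of 0.08, and nothing particular to a list is drawn from them. Of 16 tested coreceptors and other receptors of semaphorins (of 23 listed), 7 were higher and 4 lower in FGF8b, with a median log2 change of 0.10. Kdr, the receptor of vascular endothelial growth factor that works with neuropilins, fell from 6.18 ± 0.726 RPKM in control to 0.709 ± 0.078 in FGF1 and 0.0284 ± 0.0145 in FGF8b, by 2.46 ± 0.09 (limma adjusted p = 4.17e-11) and 3.65 ± 0.09 (3.26e-14). L1cam, an adhesion molecule of the Sema3a receptor complex, rose by 1.27 ± 0.12 in FGF8b (limma adjusted p = 2.42e-07) and by a further 1.32 ± 0.12 with BAY-876 (2.95e-07), reaching 4.62 ± 0.267 RPKM from 0.353 ± 0.0204 in control. Nrcam, a relative of L1cam that associates with Nrp2, rose by 1.35 ± 0.11 in FGF8b (limma adjusted p = 3.60e-08), from 0.233 ± 0.107 RPKM in control to 1.36 ± 0.0834. Kdr entered the test only through control and FGF1 libraries, and L1cam and Nrcam only through treated ones, so these calls are descriptions. The proteoglycan Vcan rose by 1.84 ± 0.07 in FGF1 (limma adjusted p = 4.02e-11), from 94.7 ± 6.28 to 339 ± 4.72 RPKM, and was the listed gene that passed between FGF9 and FGF8b, lower in FGF9 by 0.42 ± 0.07 (0.0191), although no gene of the table passed when only these 2 groups were fitted.

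Of 28 tested cytoplasmic partners of plexins and neuropilins (of 29 listed), 13 were higher and 7 lower in FGF8b, with a median of 0.08. Arhgef2, an exchange factor for RhoA, rose by 1.24 ± 0.07 (limma adjusted p = 3.59e-10), and Rnd3, a small GTP-binding protein, fell with BAY-876 against control by 3.1 ± 0.07 (4.41e-15). Of 23 tested cytoskeletal effectors (of 25), 10 were higher and 4 lower in FGF8b, with a median of 0.15. Crmp1, a collapsin response mediator, rose with BAY-876 over FGF8b by 1.23 ± 0.10 (limma adjusted p = 3.57e-08), from 0.316 ± 0.028 to 1.42 ± 0.198 RPKM. It averaged 0.0526 RPKM in control, 0.14 in FGF1 and 0.429 in FGF9. Only the libraries with BAY-876 brought it into the test, so this call is a description. Of 7 tested proteases (of 9), 1 was higher and 3 lower in FGF8b, and among the latter Adamts1 fell from 143 ± 2.45 to 8.56 ± 0.498 RPKM and the proprotein convertase Pcsk7 from 25.5 ± 2.17 to 4.22 ± 0.187. The 21 tested genes of GPI anchor synthesis, which Sema7a needs for its anchor, were higher for 6 and lower for 8 in FGF8b, with a median of -0.02, and higher for 4 and lower for 11 with BAY-876 over FGF8b, with a median of -0.18, beside 22.5% and 34.8% of all genes and a median of -0.08. Pigp, one of them, fell by 1.18 ± 0.08 there (limma adjusted p = 8.86e-09).

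Neural and endothelial cells also express this family, so their markers were read beside the falls of class 3 ligands and neuropilins. The 8 neural and Schwann markers summed to 18.2 to 18.3 RPKM over the control libraries, 11.2 to 12.6 over FGF1, 5.59 to 6.30 over FGF8b, 5.32 to 6.24 over FGF9 and 6.50 to 7.50 with BAY-876. In control, Ngfr made 6.99 and Map2 6.73 RPKM of that sum, while Sox10 was at 0.158 and Rbfox3 at 0. Tubb3 went the other way, from 0.766 RPKM in control to 4.17 after FGF1, 2.25 after FGF8b, 2.17 after FGF9 and 3.01 with BAY-876. The 6 endothelial markers summed to 7.65 to 8.98 RPKM over control, 1.68 to 1.77 over FGF1, 0.404 to 0.590 over FGF8b, 0.327 to 0.541 over FGF9 and 1.84 to 2.10 with BAY-876. Kdr made 6.18 and Tek 1.94 RPKM of the control sum, while Emcn was at 0.106, Pecam1 at 0.00998, Cdh5 at 0.0389 and Vwf at 0.00584. Tek was at 0.937 RPKM after FGF1, 0.290 after FGF8b, 0.283 after FGF9 and 0.339 with BAY-876. With BAY-876, Vwf was at 1.11 and Kdr at 0.421 RPKM. The 10 progenitor markers summed to 3111 to 3570 RPKM over control, 3108 to 3212 over FGF1, 1039 to 1230 over FGF8b, 1059 to 1077 over FGF9 and 294.8 to 302 with BAY-876. The part of these lists in the changes of the family was not tested.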

How the data were processed

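The deposited table holds 168326 transcript lines and 15 value columns with decimal commas, all matched to samples by name. Its unit was not named and was read from the values as RPKM, computed by the authors: on 46002 Ensembl transcripts, 94.1% to 95.1% of low values times length were whole multiples of 1 read per library (tolerance 0.05). The submitters' processing notes name CASAVA and bcl2fastq. Aligner, genome build, annotation and strand handling: not given in the sources used here. Overlapping lines of a gene share reads.

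Lines with a symbol (145154) gave 29072 genes, each taken from its line with the highest mean. Log2(RPKM + 0.5) of the 13869 genes with at least 0.5 RPKM in 3 libraries was fitted with limma 3.58.1 in R 4.3.3 (empirical Bayes with trend, 5 groups, no block), with Benjamini-Hochberg adjustment over all genes and a threshold of 0.05. The fit was checked on made data. Whole reads were recovered for all 31 members within 0.02 read beside rounding. Replicate numbers did not pair libraries: deviations of same-numbered libraries correlated above 0.1 in 11 of 30 pairs (from -0.443 to 0.534). Alternatives were the pseudocount, filter, scaling, transcript line, trend, samples fitted, voom, a replicate block and leaving out each library. The members and lists were chosen with earlier results of these data known. Described singly were Sema7a and the members called with an absolute change of at least 0.5 in some comparison, and from the pathway lists, genes among the 3 largest called changes per direction in a comparison. Sema4a, Sema4f and Plxnd1 were described as well, although their called changes stayed under 0.5. Protein sequences were not used here.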

Additional observations from a re-analysis of the deposited data

How the results depend on the processing

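The 75 single-gene changes that passed and were 0.5 or more in size were recomputed under 12 alternatives and without each of the 15 libraries. Of these, 74 kept their direction and their call in each setting that tested them, and 0 reversed. The exception was Sema4c in FGF9 against control, given above. The number of members lower in FGF1 against control was 3, and became 5 with a pseudocount of 1, 6 under trimmed-mean scaling, 6 with the sum over transcripts, 5 with RefSeq lines, 5 with only the groups compared and 5 with voom. It ranged from 3 to 5 without 1 library, and was 5 without FGF9 replicate 2. Sema3c and Sema6c were gained in each of the 6 settings just listed with all libraries in. Sema6c was also gained, and Sema3c was not, under median centring (limma adjusted p = 0.0381) and with a replicate block (0.0332). The same held with a filter of at least 1 RPKM in 3 libraries (limma adjusted p = 0.0492). The other counts of the 26 members called at an adjusted p under 0.05, in all and by direction, stayed within 1.5 times their value under these alternatives. By class, class 3 genes lower in FGF1 went from 2 to 4 under trimmed-mean scaling, and plexins lower with BAY-876 over FGF8b from 2 to 1 under trimmed-mean scaling and median centring. With the replicate number as a replicate block, the members called were 14 in FGF1, 17 in FGF8b and 19 in FGF9 against control, 21 for BAY-876 over FGF8b, 24 for FGF8b plus BAY-876 against control, 18 for FGF8b and FGF9 against FGF1, and 0 for FGF9 against FGF8b. By their deviations, 2 of the 15 libraries lay nearest to those that share their number. Over all genes, the 41 calls between FGF9 and FGF8b became 70 with RefSeq lines, 62 with voom, 27 with a pseudocount of 0.1 and 0 with only the groups compared, and 6 to 44 without 1 library. Members with few reads, such as Sema3d with BAY-876 and the 4 untested genes, are limited by depth.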
